A study of Mus musculus with 6 samples.

Results

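Genes of white and brown fat were followed in whole-kidney RNA from ERRa KO males, which lack ERRα, an orphan nuclear receptor, and from wild-type (WT) males. The set holds every probe set that the platform annotation assigns to 10 genes: the adipokine genes Adipoq, Lep, Retn and Cfd, the lipid droplet genes Plin1 and Cidec, the fatty acid carrier gene Fabp4, the β-adrenergic receptor gene Adrb3, and the brown fat genes Ucp1 and Cidea. The annotation names such probe sets for 7 of the 10 genes, 10 probe sets among the 45037 analysed. Plin1, Cfd and Adrb3 are not analysed here.

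There were 3 ERRa KO and 3 WT arrays (Affymetrix mouse expression arrays, 1 per sample), from males aged 2 to 3 months on a standard diet and a light-dark cycle. Left and right kidneys of a mouse were ground together after freezing. The way the Esrra allele was made, the strain, and whether the fat capsule was trimmed from the kidneys are not stated in the labels. The labels call the replicates biological without naming separate animals, so the p-values measure the spread between these samples.

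White adipocytes store triglyceride in 1 large droplet coated with perilipin and CIDE proteins and secrete hormones such as adiponectin, leptin and resistin. Brown adipocytes hold many small droplets and mitochondria, and the uncoupling protein UCP1 lets their respiratory chain run without making ATP, which gives heat. In the mouse, fat around the kidney can hold both kinds of adipocyte. ERRα is known in brown fat as a regulator of mitochondrial genes. Fabp4 is also expressed by capillary endothelium, and several lipid-handling genes described here are also used by kidney tubule cells.

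The values are log2 RMA values, in which a step of 1 is a doubling of signal. Esrra, the targeted gene, read 6.53 ± 0.13 in ERRa KO and 9.46 ± 0.05 in WT kidneys (SD, n = 3 each), a log2 difference of -2.93 (limma adjusted p = 9.85e-06). The genotype of each array was taken from the series table. The authors' other table heads the same columns with the opposite genotypes, and under those heads every direction given here would turn. Slc34a1, a phosphate transporter gene of the proximal tubule, read between 13.61 and 13.65 in ERRa KO and between 13.58 and 13.66 in WT kidneys. ERRa KO replicate 3 stood apart in liver transcripts: Alb, the albumin gene, read 12.07 there, against 6.48 and 6.80 in the other ERRa KO arrays and 6.59 to 6.77 in WT.

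The promoters of Ucp1, Adipoq and Lep are shown because Ucp1 had the widest spread over the arrays of the 7 genes, Adipoq is the defining adipokine gene, and Lep was the adipokine gene with the largest difference. They come from RefSeq on GRCm38.p6 and run from 250 bases before to 50 after the annotated start, 5′ to 3′ on the gene's strand. Ucp1 lies at chr8:83290098-83290397 (plus strand), Adipoq at chr16:23146286-23146585 (plus strand) and Lep at chr6:29059971-29060270 (plus strand). Capitals mark matches, on either strand, to 6 motifs: the ERR response element TCAAGGTCA, its core AAGGTCA (which every TCAAGGTCA holds), the PPAR-type direct repeat (AGGTCA, any base, AGGTCA), the C/EBP-type motif TTNNGNAA, TATAAA and CCAAT.
Ucp1: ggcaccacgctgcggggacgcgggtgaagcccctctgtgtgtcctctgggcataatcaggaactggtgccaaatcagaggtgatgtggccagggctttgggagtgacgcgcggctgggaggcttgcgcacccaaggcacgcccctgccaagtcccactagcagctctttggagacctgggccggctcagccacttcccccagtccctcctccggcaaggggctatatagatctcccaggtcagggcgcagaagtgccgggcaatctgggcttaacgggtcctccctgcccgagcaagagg
Adipoq: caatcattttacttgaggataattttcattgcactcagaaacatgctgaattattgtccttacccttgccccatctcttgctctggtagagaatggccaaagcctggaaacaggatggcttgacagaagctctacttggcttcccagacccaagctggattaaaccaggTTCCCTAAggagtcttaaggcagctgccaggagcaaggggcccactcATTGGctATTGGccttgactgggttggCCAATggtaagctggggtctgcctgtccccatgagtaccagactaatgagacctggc
Lep: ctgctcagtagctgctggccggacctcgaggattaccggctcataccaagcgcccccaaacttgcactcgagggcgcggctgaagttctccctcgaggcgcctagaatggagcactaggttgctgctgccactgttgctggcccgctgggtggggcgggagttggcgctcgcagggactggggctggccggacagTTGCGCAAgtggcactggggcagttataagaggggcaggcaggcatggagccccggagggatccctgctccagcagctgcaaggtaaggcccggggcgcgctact

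In the Ucp1 window 0 of the 6 motifs matched. The Adipoq window held 3 CCAAT boxes and 1 C/EBP-type match, and the Lep window held the C/EBP-type motif, which reads as a match on both strands there. Over all 32817 promoter windows of this length, 37.4% held CCAAT, 40.7% TTNNGNAA, 13.6% TATAAA, 4.72% AAGGTCA, 0.424% TCAAGGTCA and 0.0396% the direct repeat. RefSeq windows were matched for 5 of the 7 measured genes, and 0 of their 6 windows held AAGGTCA or the direct repeat. A match is a run of letters and not a measured binding site. Sequence outside the windows was not searched, so 0 matches do not show that a gene lacks these motifs. AAGGTCA was rare over all windows (4.72%), so 0 of 6 does not set these genes apart.

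The white fat hormone genes Adipoq, Retn and Lep had log2 differences of 0.078, 0.087 and 0.22, with overlapping groups. Of these, Lep lay near the floor and had an unadjusted limma p of 0.0445. The brown fat genes Ucp1 and Cidea averaged 2.27-fold and 1.98-fold higher in ERRa KO kidneys, with spreads that kept both short of the threshold. Of the 7 measured genes 0 passed an adjusted p under 0.05 (limma over 18193 genes), against 0.495% of all genes, and for 3 the unadjusted p was under 0.05, against 12.4% over the whole table. All 7 had a higher mean in ERRa KO kidneys, and their median log2 difference was 0.11, while 52.6% of all genes read higher and the median over all genes was 0.0070. The tissue label is kidney and names no fat. Adipoq, the defining adipocyte marker, read above the array medians of 5.01 to 5.06 in all 6 arrays, while Lep read below them in all 6. In ground kidneys a difference in the number of fat cells and one in RNA per cell cannot be told apart.

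**Figure D1:**
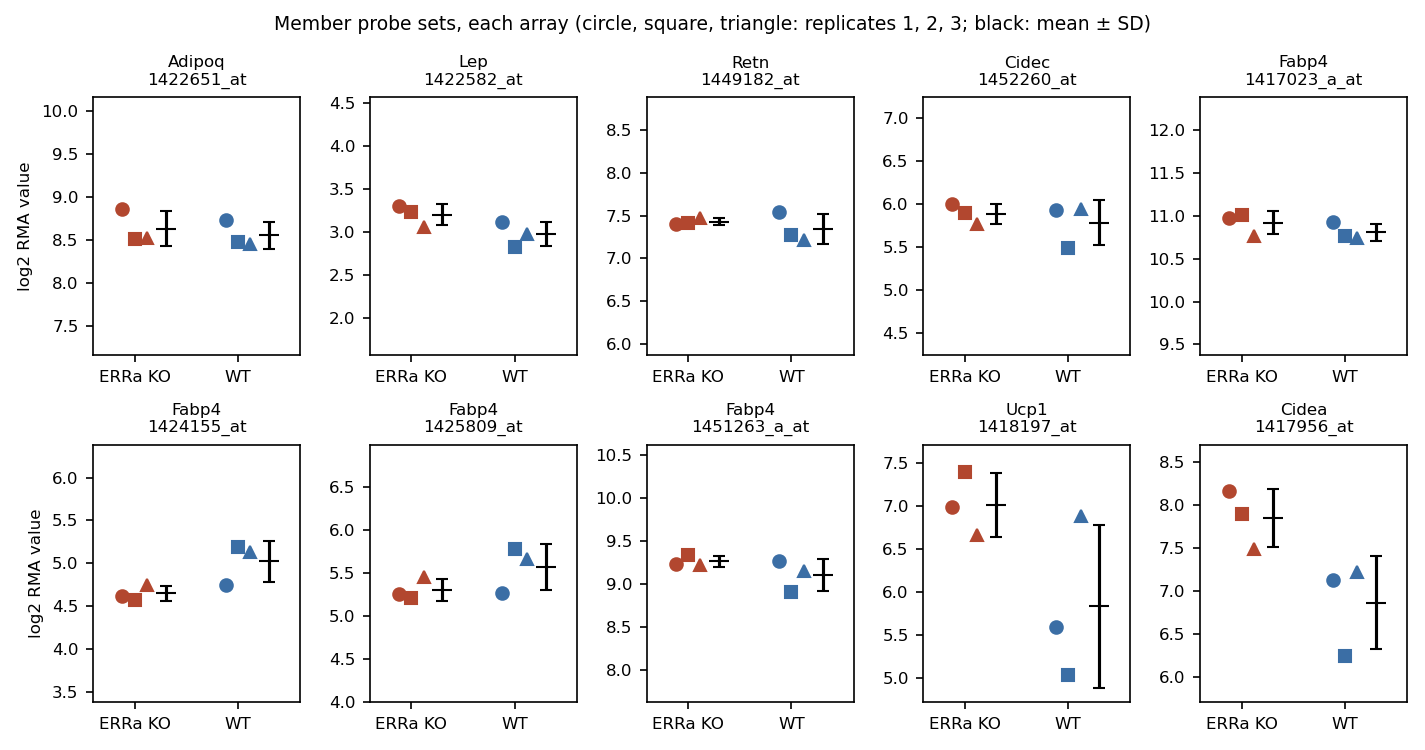
Log2 RMA values (vertical axis, 3 log2 units in every panel) of the 10 probe sets in the ERRa KO arrays (red, left) and WT arrays (blue, right), with mean ± SD in black. Ucp1 and Cidea spread widely and sit higher in ERRa KO kidneys, where Cidea does not overlap WT. The Adipoq, Lep, Retn and Cidec points of the genotypes overlap.

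Adipoq encodes adiponectin, a hormone made almost wholly by adipocytes. Its probe set (1422651_at) read 8.86, 8.51 and 8.52 in ERRa KO replicates 1 to 3, against 8.74, 8.48 and 8.46 in WT replicates 1 to 3. The genotypes overlap, and replicate 1 was the highest array of each. The log2 difference was 0.078 (SE 0.12, 95% interval -0.20 to 0.35, limma adjusted p = 0.831), an interval on the fold scale of 0.87 to 1.28. An exact permutation test over the arrays gave p = 0.5, where 3 against 3 cannot go below 0.1. Without ERRa KO replicate 1 the difference was -0.038.

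Lep, which encodes leptin, the hormone that signals fat stores to the brain, lay near the floor of the array. It read 3.30, 3.24 and 3.06 in ERRa KO and 3.12, 2.83 and 2.98 in WT kidneys. The lowest ERRa KO value lay under the highest WT value. The log2 difference of 0.22 (SE 0.09, 95% interval 0.0071 to 0.44) had an unadjusted p of 0.0445 and a limma adjusted p of 0.381. Retn encodes resistin, an adipokine of mouse white fat. It read 7.40, 7.41 and 7.47 in ERRa KO and 7.54, 7.28 and 7.21 in WT kidneys, so that the highest and the lowest arrays were both WT (log2 difference 0.087, SE 0.09, adjusted p = 0.736).

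Cidec encodes a protein that lets lipid droplets fuse into the large droplet of white adipocytes. It read 6.00, 5.89 and 5.76 in ERRa KO and 5.93, 5.48 and 5.95 in WT kidneys. The 5 arrays other than WT replicate 2 lay close together. The log2 difference was 0.099 (SE 0.13, adjusted p = 0.802), and without WT replicate 2 it was -0.052.

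Fabp4 encodes a fatty acid carrier of adipocytes and capillary endothelium and was read by 4 probe sets, which share a target and are not replicates. The brightest (1417023_a_at) read 10.97, 11.01 and 10.76 in ERRa KO and 10.92, 10.76 and 10.74 in WT kidneys, overlapping groups with a log2 difference of 0.11 (SE 0.09, adjusted p = 0.662). A dimmer one (1451263_a_at) read 9.23, 9.33 and 9.22 in ERRa KO and 9.27, 8.90 and 9.14 in WT kidneys, a difference of 0.16. The remaining pair pointed the other way. Probe set 1424155_at read 4.62, 4.58 and 4.75 in ERRa KO and 4.75, 5.19 and 5.14 in WT kidneys, a difference of -0.37 with an unadjusted p of 0.0133 (limma over 45037 probe sets, adjusted p = 0.318). Probe set 1425809_at read 5.25, 5.20 and 5.45 in ERRa KO and 5.26, 5.78 and 5.66 in WT kidneys, a difference of -0.27. In both of these dim probe sets WT replicate 1 read near the ERRa KO arrays. Averaging the 4 probe sets gave Fabp4 a difference of -0.094. In the fit of all probe sets 0 of the 10 probe sets passed the threshold, against 0.111% of all 45037, and 4 had an unadjusted p under 0.05, against 10.9% of all.

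Ucp1, the uncoupling protein gene that marks thermogenic fat, had the widest range of the 7 genes, 2.37 on the log2 scale. Its probe set (1418197_at) read 7.00, 7.40 and 6.66 in ERRa KO replicates 1 to 3, against 5.60, 5.04 and 6.88 in WT replicates 1 to 3. WT replicate 3 read above ERRa KO replicate 3, so the groups overlap, while the other WT arrays read below every ERRa KO array. Means were 7.02 ± 0.37 in ERRa KO and 5.84 ± 0.95 in WT (SD, n = 3 each), a log2 difference of 1.18 (SE 0.43, 95% interval 0.18 to 2.18, limma adjusted p = 0.32). In size this was larger than the rise of all but 26 of the 18193 genes, and 49 genes had a wider range. The exact permutation p was 0.2. Leaving out 1 array gave differences between 0.78 (without WT replicate 2) and 1.70 (without WT replicate 3), with adjusted p between 0.113 and 0.547. Without ERRa KO replicate 3 the difference was 1.36.

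Cidea encodes a droplet protein of the same family as Cidec that in mice marks brown adipocytes. Its probe set (1417956_at) read 8.17, 7.89 and 7.49 in ERRa KO and 7.13, 6.24 and 7.22 in WT kidneys. The lowest ERRa KO array lay above the highest WT array, a pattern shown by 9.11% of all genes, and WT replicate 2 was the lowest of all. The log2 difference was 0.99 (SE 0.27, 95% interval 0.35 to 1.62), with an unadjusted p of 0.00729 and a limma adjusted p of 0.199. The exact permutation p was 0.1, the smallest that 3 against 3 allows. Leaving out 1 array gave 0.68 (without WT replicate 2) to 1.17 (without replicate 3 of either genotype).

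**Figure D2:**
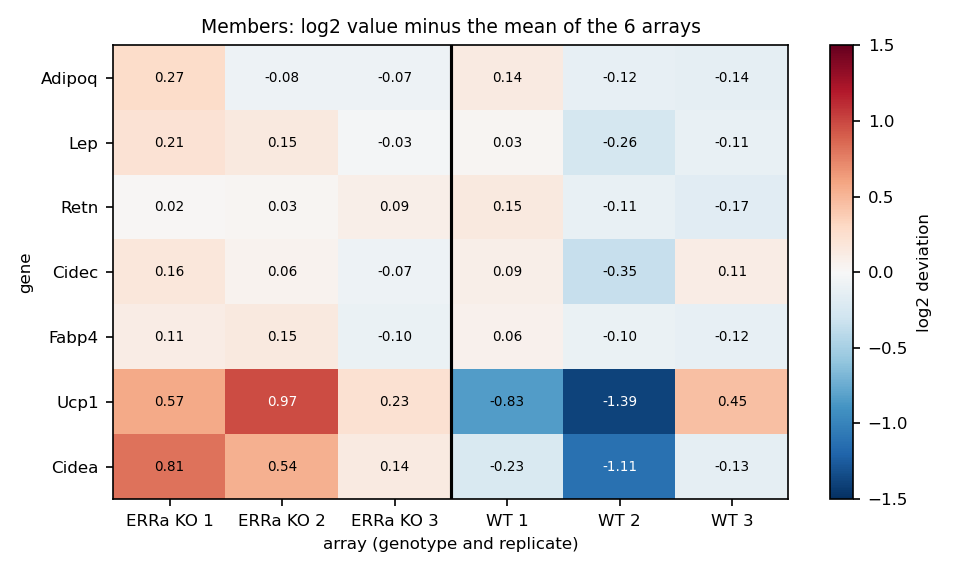
Log2 value minus the mean of the 6 arrays (colour and printed number) for the 7 genes (rows) in the ERRa KO arrays (left of the line) and the WT arrays (right). The Ucp1 and Cidea rows span the widest colours, and WT replicate 2 is the lowest array for both.

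WT replicate 2 read lowest of the 6 arrays for 4 of the 7 genes (Lep, Cidec, Ucp1 and Cidea), and ERRa KO replicate 1 read highest for 4 (Adipoq, Lep, Cidec and Cidea). Correlations were computed among Adipoq, Ucp1 and Cidea and not for the other white fat genes. In WT replicate 3 Ucp1 lay 0.45 above its mean over the arrays while Adipoq lay 0.14 below its own. Over the 6 arrays the correlation of Adipoq with Ucp1 was r = 0.056 (Spearman rho 0.14, exact permutation p = 0.925 and 0.803, adjusted over 3 relations the same). Without the arrays farthest from the Adipoq median, replicate 1 of each genotype, r was 0.36 over 4 arrays.

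Ucp1 and Cidea were more alike, with r = 0.88 and rho = 0.89 (exact permutation p = 0.0222 and 0.0333, adjusted over the 3 relations 0.0667 and 0.1). Without WT replicates 1 and 2, the arrays farthest from the Ucp1 median, r was 0.52, so the relation rests partly on them. The correlation of deviations from the genotype means was 0.73. Adipoq and Cidea gave r = 0.51 and rho = 0.49 (exact permutation p = 0.264 and 0.356, adjusted 0.396 and 0.533). Without replicate 1 of each genotype their r was 0.58.

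Whether the brown genes differed from Adipoq in their response to genotype was tested on the difference of log2 values within each array. These tests were added after the values were seen. Adipoq had the smallest difference of the 7 genes and the brown genes the largest, a choice that the adjustment over 2 pairs does not cover. Cidea minus Adipoq was -0.70, -0.62 and -1.03 in ERRa KO and -1.61, -2.23 and -1.23 in WT kidneys. All 3 ERRa KO values lay above all 3 WT values, a difference of 0.91 with an exact permutation p of 0.1 (adjusted over the 2 pairs, 0.2). Ucp1 minus Adipoq was -1.87, -1.11 and -1.86 in ERRa KO and -3.14, -3.44 and -1.57 in WT kidneys. These overlap through WT replicate 3, with a difference of 1.10 and an exact permutation p of 0.3 (adjusted 0.3).

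Genes with patterns most like those of Ucp1 and Adipoq were sought among genes whose range over the 6 arrays was at least 1. For Ucp1 the 8 highest Pearson r among 221 genes were those of Cidea (0.88), Cox8b (0.87), the retinol dehydrogenase family gene Rdh16f2 (0.87), the peroxisomal hydroxyacid oxidase gene Hao2 (0.86), Rnf227 (0.85), the red cell haem synthesis gene Alas2 (0.83), and the cytochrome P450 genes Cyp2d9 (0.80) and Cyp2d12 (0.79). For Adipoq the 8 highest of 222 were those of Id3 (0.87), Atp10d (0.81), Iglv1 (0.80), 6820431F20Rik (0.80), Chaserr (0.78), 4933427D14Rik (0.74), Ctxn3 (0.72) and Snhg16 (0.71). On that second list Cidea came in place 38 and Ucp1 in place 82. The white fat members had ranges of at most 0.52, under that minimum, so none of them could appear on either list. Likeness between Adipoq and the other white fat genes was therefore not read here. With 6 arrays that also differ in genotype, these r values describe likeness and carry no test.

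The wider brown fat list held 18 measured genes besides the members, of which 1 rose, 0 fell and 17 did not pass the threshold, where 0.495% of all genes passed. 14 read higher and 4 lower, against 52.6% higher among all genes, and the median was 0.19, against 0.0070. For 9 the unadjusted p was under 0.05, 7 higher and 2 lower, against 12.4% of all genes. This list, like the other lists here, was chosen with earlier results of these data known. Its comparison with all genes is therefore a description and not an independent test. The gene that rose was Cox8b, a cytochrome oxidase subunit gene of heart, muscle and brown fat. It read 7.26, 7.29 and 6.95 in ERRa KO and 6.09, 5.90 and 6.35 in WT kidneys, 2.08-fold higher without overlap (log2 difference 1.06, SE 0.13, limma adjusted p = 0.0328). The call held when replicate 3 of either genotype was left out (limma adjusted p = 0.0379 for the ERRa KO array and 0.0385 for the WT array). It was lost when ERRa KO replicate 1 (0.089), ERRa KO replicate 2 (0.118), WT replicate 1 (0.0925) or WT replicate 2 (0.0929) was left out, and with the replicate block (0.107).

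Genes named in this paragraph were chosen after their values were seen. Dio2, which encodes the deiodinase that activates thyroid hormone in brown fat, read 4.13, 4.11 and 3.94 in ERRa KO and 3.69, 3.59 and 3.63 in WT kidneys, a difference of 0.42 (SE 0.07, adjusted p = 0.0618) at a dim level. Its other probe sets gave 0.21 and 0.12, with overlapping groups. Cox7a1, another oxidase subunit gene of muscle and brown fat, read 8.51, 8.73 and 8.53 in ERRa KO and 8.07, 8.18 and 8.31 in WT kidneys (0.40, SE 0.09, adjusted p = 0.112). By the brightest probe set both genes were higher without overlap, a pattern shown by 9.11% of all genes. Of the regulators, Prdm16, which directs brown adipocyte identity, read -0.26 (adjusted p = 0.246) and Ppargc1a, a coactivator of ERRα, -0.14 (adjusted p = 0.347). Both were lower without overlap, and both are also kidney transcripts. With all probe sets averaged, the differences were -0.16 for Prdm16 and -0.12 for Ppargc1a. The share of all genes lower without overlap was not computed, for these or for genes named later. Ebf2, Zic1 and Lhx8 read between 2.56 and 3.65 in ERRa KO and between 2.53 and 3.51 in WT kidneys, at the floor of the array. Elovl3, a fatty acid elongase gene of brown fat and liver, read 4.30 in ERRa KO replicate 3, against 3.30 and 3.44 in the other ERRa KO arrays and 3.29 to 3.32 in WT.

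**Figure D3:**
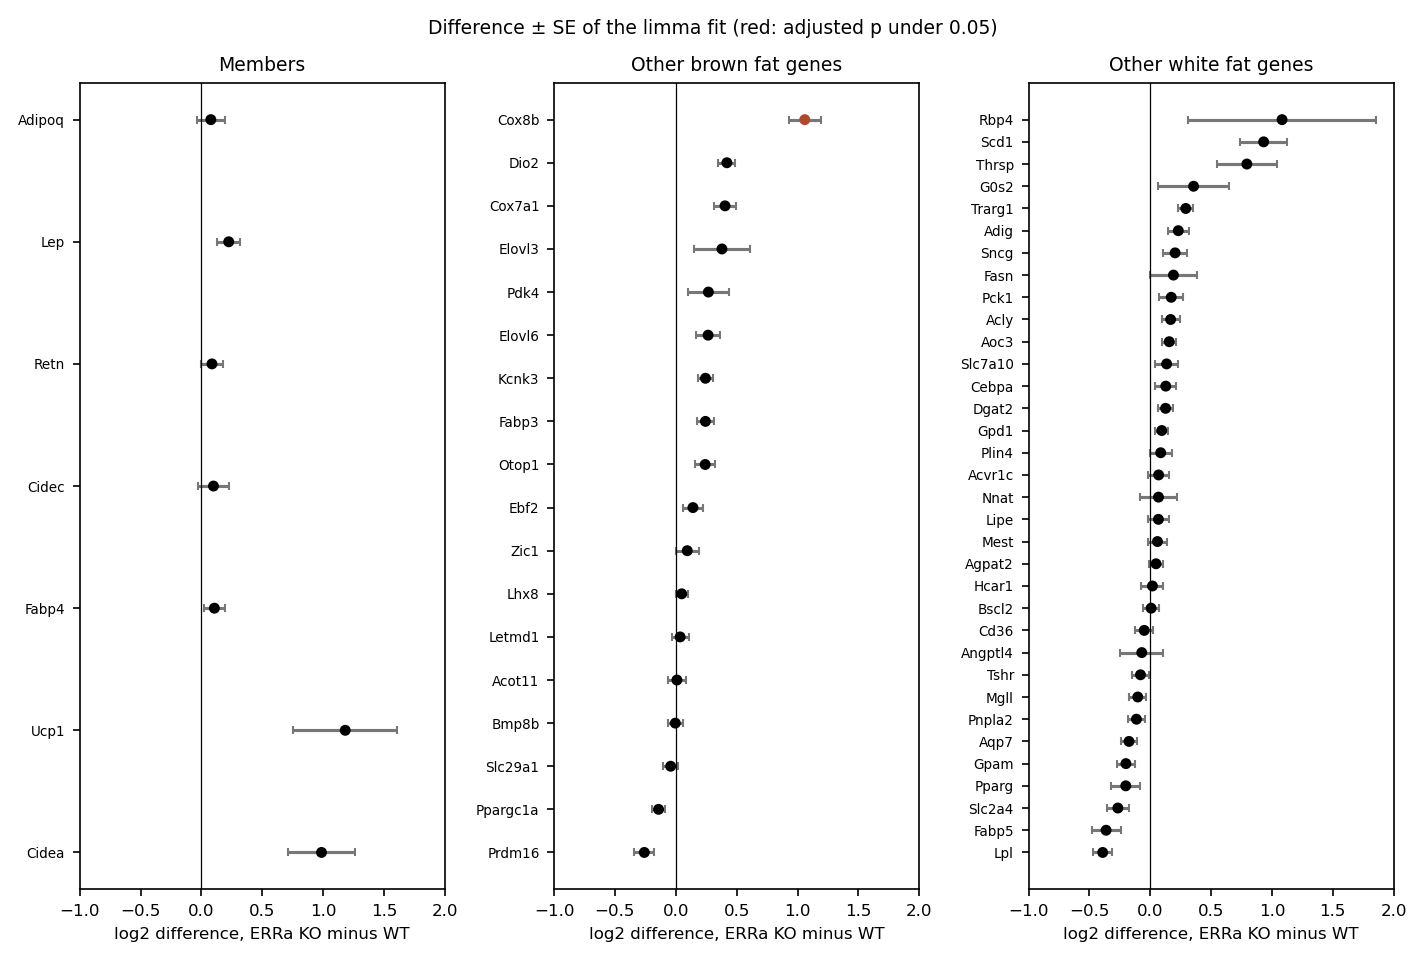
Log2 difference, ERRa KO minus WT, ± SE of the limma fit (horizontal axis) for the 7 measured members, 18 other brown fat genes and 34 other white fat genes. Cox8b, in red, is the gene with an adjusted p under 0.05, and Ucp1 and Cidea lie to the right with wide bars.

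Of 34 other measured white fat genes 0 passed limma's threshold, against 0.495% of all genes. 23 read higher and 11 lower, against 52.6% higher among all genes, with a median of 0.068. For 10 the unadjusted p was under 0.05, 5 in each direction, against 12.4% of all genes. The regulator and lipase genes named next were chosen after their values were seen. Among regulators, Pparg, the master regulator of adipocyte identity, read -0.20 (adjusted p = 0.554) and Cebpa 0.13 (adjusted p = 0.599). Lipolysis genes were split, 3 higher and 3 lower: Lipe, the hormone-sensitive lipase gene, read 0.067 and Pnpla2, the triglyceride lipase gene, -0.11. Lipid synthesis and storage genes read higher in 10 of 11, with a median of 0.13. Uptake and transport genes leaned the other way, 2 higher and 4 lower, with a median of -0.16. Secreted, surface and other genes were 7 higher and 2 lower, with a median of 0.069.

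The white fat genes with the smallest p were Lpl, Scd1 and Trarg1. Lpl, which encodes lipoprotein lipase, read 12.91, 13.00 and 13.17 in ERRa KO and 13.44, 13.38 and 13.44 in WT kidneys, lower without overlap (-0.39, SE 0.08, adjusted p = 0.0873). Its other probe set gave -0.64. Scd1, the stearoyl-CoA desaturase gene, read 11.47, 11.78 and 11.41 in ERRa KO and 11.07, 10.46 and 10.33 in WT kidneys, higher without overlap (0.93, SE 0.19, adjusted p = 0.106), and 1.08 by its other probe set. Trarg1, a regulator of glucose transporter traffic in adipocytes, read 5.17, 5.26 and 5.24 in ERRa KO and 4.96, 4.98 and 4.85 in WT kidneys (0.29, SE 0.06, adjusted p = 0.109). Lpl and Scd1 thus pointed in opposite directions. Both read above Adipoq (8.46 to 8.86) in every array, and the part of fat cells in their signal was not tested. The adipocyte genes Adig and Slc7a10, chosen after their values were seen, were dim. Adig read 5.08 to 5.38 in ERRa KO and 4.98 to 5.08 in WT kidneys, overlapping groups. Its difference was 0.23 (limma unadjusted p = 0.0267, adjusted p = 0.321). Slc7a10 read 3.71 to 3.84 in ERRa KO and 3.43 to 3.78 in WT kidneys (0.13, limma adjusted p = 0.626).

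Markers of other cells that could come with the fat capsule were read alongside. Over all genes 12.4% had an unadjusted p under 0.05, a share that the counts in both of the next lists are close to. Of 6 fat precursor genes 0 passed limma's threshold, 1 had an unadjusted p under 0.05 (Cd34, -0.19, adjusted p = 0.334), and the median was 0.022, with Dpp4 at 0.049 and Zfp423 at 0.075. Of 7 genes of mesothelium, the cell layer that covers organs, 0 passed and 1 had an unadjusted p under 0.05: Upk3b read 6.39, 6.64 and 6.47 in ERRa KO and 6.14, 6.12 and 6.30 in WT kidneys (0.31, adjusted p = 0.197). Krt19 and Msln both read 0.15.

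Cox8b and Cox7a1 are also expressed in skeletal muscle. The mean of 6 muscle genes lay between 4.14 and 4.24 in ERRa KO and between 4.10 and 4.23 in WT arrays, with 3 genes higher and 3 lower. Ckm, the muscle creatine kinase gene and the highest of them, read 5.46, 5.44 and 5.50 in ERRa KO and 5.41, 5.44 and 5.39 in WT kidneys (0.054), and Myh4 differed by 0.15. The part of muscle RNA in the Cox8b and Cox7a1 differences was not tested. The mean of 11 adrenal genes lay between 4.68 and 4.72 in ERRa KO and between 4.67 and 4.68 in WT arrays (7 genes higher and 4 lower, Pnmt -0.22, Cyp21a1 0.16). That of 5 urothelium genes lay between 5.56 and 5.79 in ERRa KO and between 5.56 and 5.60 in WT arrays. Of the urothelium genes 5 were higher and 0 lower, against 52.6% higher among all genes (Upk2 0.034, Trp63 0.18). Chga and Upk1a, chosen after their values were seen, had the largest differences of these lists. Chga differed by 0.25 in the adrenal list (limma adjusted p = 0.148) and Upk1a by 0.24 in the urothelium list (limma adjusted p = 0.38). The mean of 7 kidney genes lay between 11.48 and 11.66 in ERRa KO and between 11.52 and 11.72 in WT arrays, with 3 genes higher and 4 lower (Aqp2 0.12). Umod, the uromodulin gene of the thick ascending limb, chosen after its values were seen, read 13.14, 13.20 and 13.37 in ERRa KO and 13.50, 13.55 and 13.53 in WT kidneys, lower without overlap (-0.29, SE 0.07, limma adjusted p = 0.159).

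In the blood list the mean of 5 genes lay between 4.51 and 4.69 in ERRa KO and between 4.41 and 4.95 in WT arrays, with 1 gene higher and 4 lower. The higher one, Alas2, a red cell gene and the brightest of the list, read 7.37, 6.93 and 7.31 in ERRa KO and 5.69, 6.07 and 6.98 in WT kidneys, high in WT replicate 3 like Ucp1 (0.96, SE 0.30, limma adjusted p = 0.247). The neutrophil genes S100a9 and S100a8, chosen after their values were seen, went the other way. S100a9 read 4.58, 4.32 and 4.47 in ERRa KO and 4.94, 4.59 and 5.10 in WT kidneys, without overlap (-0.42, SE 0.13, limma adjusted p = 0.247), and S100a8 differed by -0.53 (adjusted p = 0.425). Hba-a1, another red cell gene of the list, chosen after its values were seen, averaged 3.28 in both genotypes, at the floor of the array. Its difference was -0.0081 (limma adjusted p = 0.977). Hba-a1 was read by 1 probe set at the floor, so this value cannot show whether red cell RNA differed. Hbb-b1, also listed, was not analysed. The part of the blood genes in the Ucp1 and Cidea differences was not tested. The mean of 7 liver genes lay between 6.43 and 9.31 in ERRa KO and between 6.52 and 6.70 in WT arrays, with the high value in ERRa KO replicate 3, and Ttr read -0.22. Rbp4, on the white fat list and also a liver transcript, was chosen after its values were seen and read 8.60 in that array, against 5.35 and 5.54 in the other ERRa KO arrays and 5.26 to 5.63 in WT. Ucp1 and Cidea were lowest among the ERRa KO arrays in that same array, and both differences were larger without it. Without that array the other differences were 0.13 for Adipoq, 0.29 for Lep, 0.066 for Retn, 0.16 for Cidec and 0.18 for Fabp4, and 0 of the 7 genes passed limma's threshold, with 4 at an unadjusted p under 0.05.

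**Figure D4:**
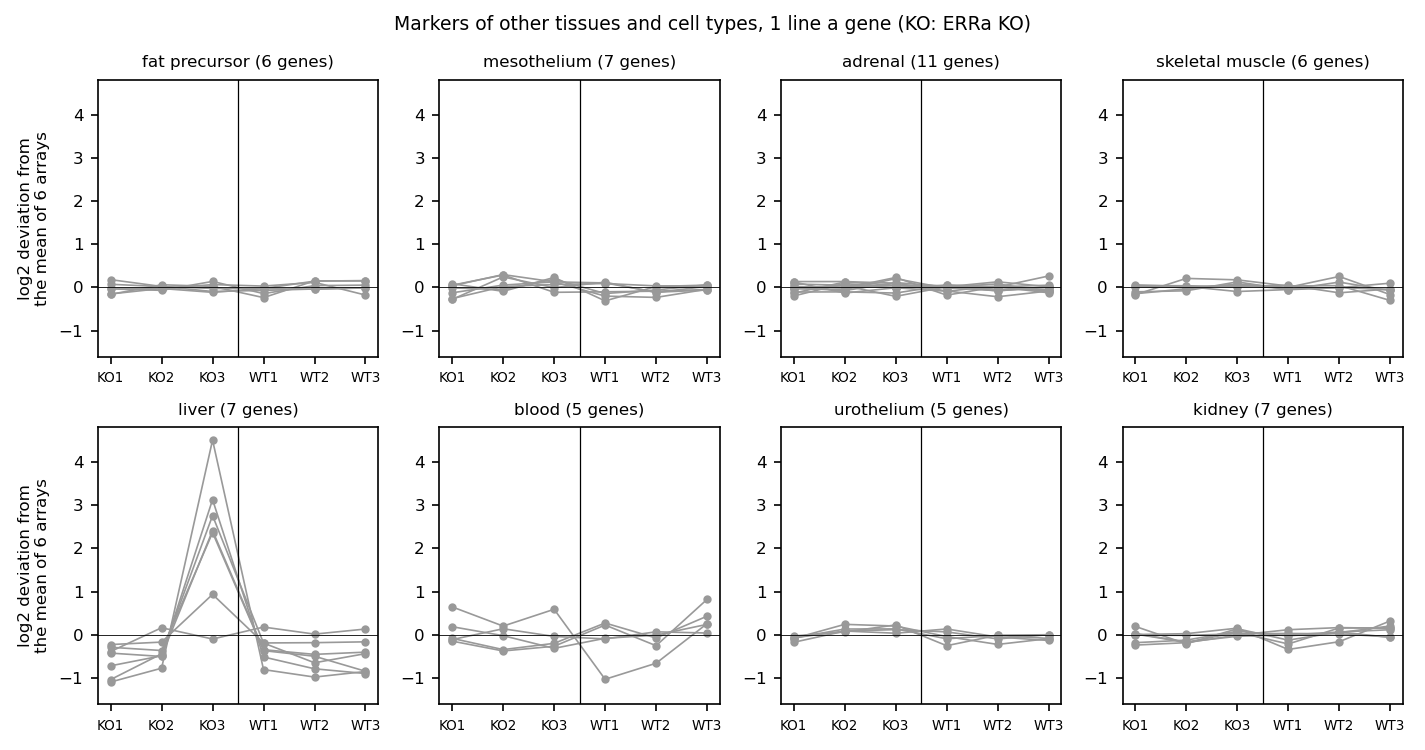
Log2 deviation from the mean of the 6 arrays (vertical axis) for 8 marker lists, 1 line a gene, in the ERRa KO arrays (left of the line) and the WT arrays (right). The liver panel peaks in ERRa KO replicate 3, where Alb read 12.07, and the fat precursor, adrenal and skeletal muscle lines run close to 0.

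In the authors' deposited table, the fold change column gives 1.18 for Ucp1 with a p of 0.114 and 0.99 for Cidea with a p of 0.0552, unadjusted and from a test the header does not name. That column follows the direction used here.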

How the data were processed

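Whole-kidney RNA of 3 ERRa KO and 3 WT males was read on 1 array each. Per the submitters' processing notes, the deposited log2 values were made with RMA, which corrects background, quantile normalizes and summarises probes, so low levels are compressed; the settings used are not given. The authors' table also holds a log2 fold change and an unadjusted p-value, deposited with no test named in the file header. Its 6 value columns equal the series table for 45101 of 45101 probe sets once genotype heads are exchanged.

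After leaving out 64 hybridisation controls, 45037 probe sets remained. The annotation names 1 gene for 34945, and 34741 matched a GRCm38.p6 table by identifier. The 932 that name several genes and the 9160 that name none were not assigned to a gene. The probe set with the highest mean stood for its gene (18193 genes). Genotype was tested two-sided with limma's moderated statistic (limma 3.58.1, R 4.3.3), and p was adjusted by Benjamini-Hochberg over all genes or all probe sets, threshold 0.05, with no filter. Single values and correlations had exact two-sided permutation tests (scipy 1.17.1). The fit was tested on simulated data with known changes.

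The members and lists were chosen with earlier results of these data known. Named genes are the members, list genes past the threshold or else the 3 with the smallest p, the highest and widest gene of each other tissue list, and the 8 most like Adipoq and Ucp1. Genes named outside this rule were chosen after their values were seen, as the text says beside them. The tests of brown against white genes and 2 of the 3 correlations were added after the values were seen. The closing section gives the alternatives. The number of arrays limits the precision.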

Additional observations from a re-analysis of the deposited data

How the results depend on the processing

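None of the 7 member genes and none of the 10 member probe sets passed the threshold under any alternative run, by limma in each case, with 1 to 4 of the 7 genes at an unadjusted p under 0.05. Ucp1 and Cidea were higher in ERRa KO under every alternative that gave a value. The number of called genes moved far more, from 90 to 220 above the median level, 379 with a trended and robust prior, 31 with every probe set in 1 fit, and to between 10 and 39 when 1 array was left out. Called probe sets moved from 50 to 143 above the median level, 437 with the trended and robust prior and 92 with array weights, and were between 7 and 35 when 1 array was left out. The replicate numbers share only a number: same-numbered arrays had correlations of deviations of -0.039, -0.0031 and -0.078, and 0 of 3 ERRa KO arrays were closest to the WT array of their own number. With the replicate block 18 genes and 3 probe sets were called, 0 of the other brown fat genes, and Cox8b had an adjusted p of 0.107 (difference 1.06). Other brown fat genes called were 2 with array weights (Cox8b and Dio2), 3 with the trended and robust prior (with Cox7a1), and 0 to 1 when 1 array was left out. Lpl was the 1 other white fat gene called above the median level and with the trended and robust prior. Signs turned for Adipoq without ERRa KO replicate 1 (-0.038), where leaving out 1 array gave up to 0.17, for Cidec without WT replicate 2 (-0.052, up to 0.18 without another array) and for Fabp4 with all probe sets averaged (-0.094). The correlation of Adipoq with Ucp1 was -0.18 on deviations from the genotype means. Under the exchanged heads Esrra would read 2.93 higher in ERRa KO. The cause of these changes was not tested. The filter above the median level left out Lep, Cidec and Ucp1.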
